A study of Homo sapiens with 28 samples.

Results

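This account follows the histone mark H3K27me3 across cell division in human embryonic stem cells, from the G2/M fraction to the early G1 fraction. Peaks of the 2 deposited H3K27me3 lists were matched when they overlapped by at least 1 bp on chromosomes 1 to 21. A G2/M peak without an early G1 partner is called lost, an early G1 peak without a G2/M partner is called gained, and all others are kept. The G2/M list gave 24445 peaks of its 26480, and the early G1 list gave 22140 of its 23755. Together these are 46585 of the 317841 peaks in the 16 ChIP lists of the series.

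The cells were Fucci human embryonic stem cells, a line in which fluorescent reporters follow the cell cycle, so that phases can be sorted without drugs. Both fractions came from this line: AzH, labelled G2/M, and DN, labelled early G1. All cells were kept without serum or feeder cells in a defined medium with Heregulin b1 at 10 ng/ml, Activin a at 10 ng/ml, LONGR3 IGF-1 at 200 ng/ml and FGF2 at 8 ng/ml. Each mark had 1 library per fraction, and no label says whether the fractions came from separate sorts or cultures, so no test between fractions was possible. Exact Clopper-Pearson 95% intervals are given for shares. They treat peaks as independent and leave out every error but that of counting. How many reads lie behind each list is unknown here.

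H3K27me3 is written by Polycomb repressive complex PRC2, whose EZH subunits are the methyltransferases and whose EED subunit binds the mark and so helps it spread from nucleosome to nucleosome. In embryonic stem cells it forms broad domains over silent developmental genes, above all at promoters rich in CpG, and it often lies together with H3K4me3 there, a state called bivalent. Histones that carry the mark pass to both daughter chromatids at replication, newly deposited histones are methylated with a delay, and at mitosis chromatin condenses and many regulatory factors leave it.

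GATA6, an endoderm transcription factor gene, lies beside one of the 2 viewpoints of the chromosome conformation (4C) libraries of the series, and its promoter sequence is shown for its CpG content, next to a domain described here. The 250 bases before its start were taken from RefSeq (GRCh38.p14, chromosome 18, + strand), with CG dinucleotides in capitals.

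GATA6 promoter: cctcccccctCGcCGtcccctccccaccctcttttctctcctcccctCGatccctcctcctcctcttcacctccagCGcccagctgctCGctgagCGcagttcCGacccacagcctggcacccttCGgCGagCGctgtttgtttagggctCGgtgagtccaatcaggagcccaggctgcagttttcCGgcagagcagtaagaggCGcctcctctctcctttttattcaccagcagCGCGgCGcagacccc

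These 250 bases hold 16 CG dinucleotides and have a GC content of 64.4%. The median over 35116 RefSeq promoters of the same length was 11, and 41.0% of them held at least 16. Coordinates of peaks are those of the deposited lists, taken to be hg19, a build other than that of this sequence, so the sequence was not placed inside a peak, and peaks are named by position and not by gene.

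In G2/M, H3K27me3 covered 22.5 Mb with a median peak width of 275 bp. In early G1 it covered 25.2 Mb with a median of 350 bp. Peaks under 500 bp numbered 16803 in G2/M and 12940 in early G1, those of 500 bp to 5 kb numbered 6868 and 8358, and those over 5 kb, called domains here, numbered 774 and 842. The early G1 list thus held fewer and longer peaks. The deposited heights, whose scale is not given, had a median of 19.3 in G2/M and 28.8 in early G1, with 5th and 95th percentiles of 13.5 and 98.3 in G2/M and 20.2 and 170.2 in early G1. Because the lowest listed heights also differ, heights were compared relative to each list's median over the 9786 merged regions that hold a peak in both, which was 27.8 in G2/M and 48.5 in early G1.

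Most of the H3K27me3 length was in the same place in both fractions. The lists shared 18.5 Mb, which is 63.2% of the 29.2 Mb covered in either, 82.2% of the G2/M length and 73.3% of the early G1 length. Of the 6.74 Mb covered in early G1 alone, 59.6% lay on kept peaks: 2.84 Mb beyond the outermost G2/M partner of the peak and 1.18 Mb in gaps between G2/M partners. Of the 3.99 Mb covered in G2/M alone, 53.8% lay on lost peaks. Length listed in early G1 alone was thus mostly on peaks that also had a G2/M partner, while length listed in G2/M alone was mostly on lost peaks.

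Whether a peak was kept followed its width closely. Width itself went with height (Spearman rho 0.92 in G2/M and 0.94 in early G1), and their parts were not told apart. A longer peak also has more bases on which a match of 1 bp can fall. Over all widths, 15525 G2/M peaks had an early G1 partner and 8920 were lost, 36.5% of the list. In the other direction 12481 early G1 peaks had a G2/M partner and 9659 were gained, 43.6% of the list. Among G2/M peaks under 500 bp, 51.3% were kept (8626 of 16803, interval 50.6% to 52.1%). The share was 89.2% at 500 bp to 5 kb (6129 of 6868, 88.5% to 89.96%). It was 99.5% over 5 kb (770 of 774, 98.7% to 99.9%). Early G1 peaks stood in the same order, with 35.2% kept under 500 bp (4552 of 12940), 84.8% at 500 bp to 5 kb (7088 of 8358) and 99.9% over 5 kb (841 of 842). By number, most lost and gained peaks were therefore narrow: 8177 of the 8920 lost and 8388 of the 9659 gained were under 500 bp. By length the narrow ones made up 1.51 of 2.15 Mb lost and 1.68 of 2.72 Mb gained, and peaks of 500 bp to 5 kb covered 0.612 and 1.04 Mb.

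In finer bins the shares climbed with width across the class limits. G2/M peaks of 75 to 100 bp were kept in 38.6% of cases, those of 300 to 475 bp in 70.0%, and those of 1000 to 1475 bp in 91.7%. Early G1 peaks of the same bins were kept in 24.1%, 49.4% and 88.5%. From 2 kb upward both directions were above 98%, and all 295 G2/M and all 304 early G1 peaks of 10 kb or more were kept. Around the limits, 74.0% of G2/M peaks of 425 to 475 bp and 74.8% of those of 500 to 550 bp were kept, and 99.3% of those of 4 to 5 kb and 99.4% of those just over 5 kb. For early G1 peaks the shares around 500 bp were 56.4% (53.2% to 59.5%) and 61.6% (58.0% to 65.1%). Around 5 kb they were 99.5% and 100%.

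**Figure D1:**
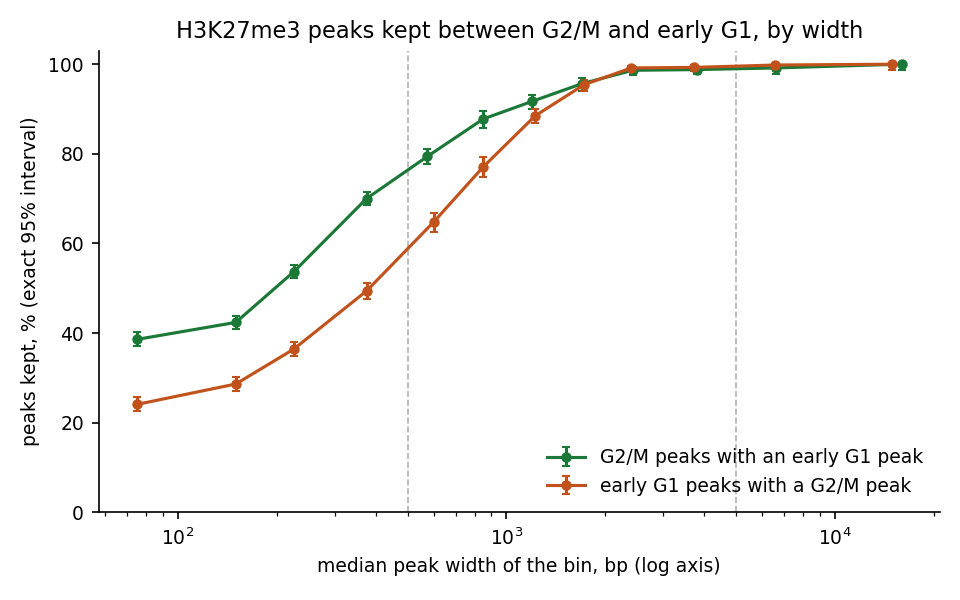
Share of H3K27me3 peaks kept (vertical axis, percent, with exact 95% intervals) against peak width (horizontal axis, bp, log scale) for G2/M peaks, green, and early G1 peaks, orange. Dashed lines mark 500 bp and 5 kb. The shares climb from 38.6% and 24.1% in the narrowest bin to 100% in the widest.

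A kept narrow peak was often part of something broader in the other fraction. Of the 8626 kept G2/M peaks under 500 bp, 28.1% met an early G1 peak that was itself under 500 bp, 62.3% met one of 500 bp to 5 kb and 9.60% met a domain. Their widest early G1 partner was the longer peak in 87.4% of cases. Early G1 peaks under 500 bp met a longer G2/M peak in 69.8% of cases. Merged regions had the same structure: 2575 joined several G2/M peaks to 1 early G1 peak, 1025 joined 1 G2/M peak to several in early G1, 5395 held 1 of each and 791 held several of each. The 2 lists thus often drew 1 marked stretch with different breaks. When peaks of a list closer than 1 kb were joined first, 3260 G2/M stretches were lost and 2932 early G1 stretches gained. Joining also shortens both lists, and below 5 kb the kept shares were lower than without it. For G2/M they were 30.6% under 500 bp and 83.7% at 500 bp to 5 kb, and for early G1 22.1% and 77.2%.

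Lost and gained narrow peaks lay near kept H3K27me3 as well as far from it. The median distance from a lost narrow peak to the nearest kept peak was 1.90 kb, with 38.2% within 1 kb and 16.4% beyond 100 kb. For gained narrow peaks the median was 1.33 kb, with 44.5% within 1 kb and 16.2% beyond 100 kb. The 4 lost domains and the 1 gained domain were all more than 100 kb from any kept peak.

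Below 5 kb, unmatched peaks were lower than kept peaks of the same list and class. Among G2/M peaks under 500 bp, kept ones had a median relative height of 0.621 and lost ones 0.582. At 500 bp to 5 kb the medians were 1.35 for kept and 1.001 for lost peaks. Among early G1 peaks the medians were 0.518 for kept and 0.476 for gained narrow peaks, and 1.28 and 0.723 at 500 bp to 5 kb. Gained peaks were below lost ones on this scale but above them in deposited height. Median deposited heights were 16.2 for lost and 23.1 for gained narrow peaks, and 27.9 and 35.1 in the middle class. By score, gained peaks were slightly weaker. The median scores were -0.708 for lost and -0.705 for gained narrow peaks, and -1.09 and -1.08 in the middle class. Between unmatched and kept peaks the gap was small in the narrow class, where most peaks sit near the lowest listed height, and larger in the middle class. Over 10 equal groups by height, the share of G2/M peaks kept went from 42.7% in the lowest to 95.7% in the highest, and of early G1 peaks from 22.4% to 99.9%.

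**Figure D2:**
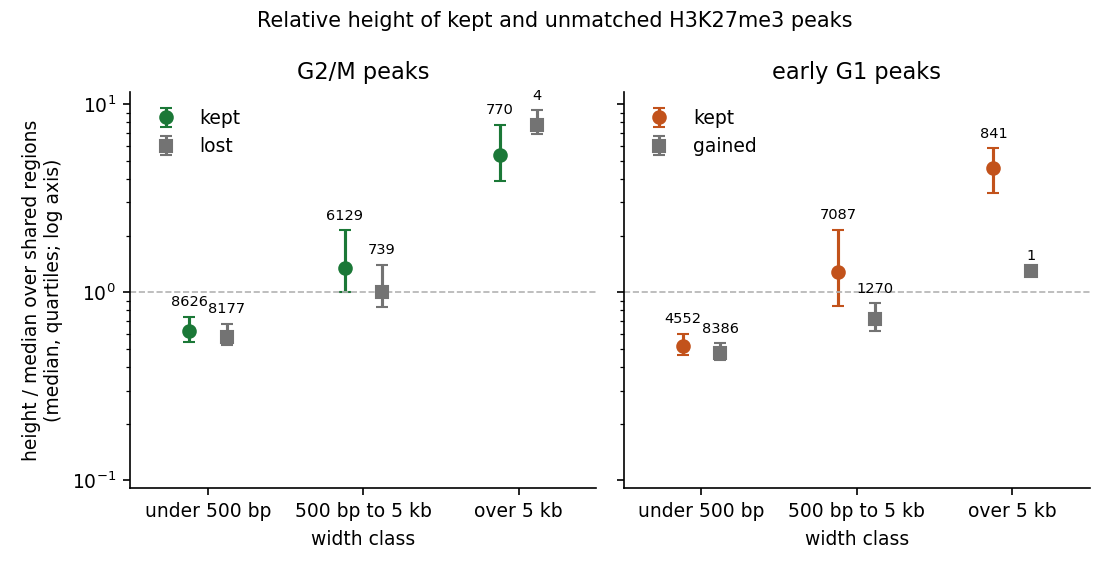
Relative height (peak height over the list's median across shared regions, log axis) of kept and unmatched H3K27me3 peaks by width class, for G2/M peaks on the left and early G1 peaks on the right. Points are medians, bars are quartiles and the counts printed over the bars are peaks with a height; lost domains, with 4 peaks and a median of 7.75, stand above kept ones, at 5.34.

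Whether tall lost peaks outnumbered tall gained ones depended on the scale. A height above the shared median was found in 693 lost peaks, 122 of them above 2 times that median. It was found in 201 gained peaks, 5 of them above 2 times. That median is a deposited height of 27.8 in G2/M and 48.5 in early G1: above 27.8 in both lists stood 693 lost and 2501 gained peaks, and above 48.5 stood 169 and 201. By score, 711 lost and 206 gained peaks were stronger than the median over shared regions of their own list. These last counts were added after the data were seen, and the tall peaks described next are those above the median height of their own list. Most of the tall lost peaks were listed in the other phases: 86.0% overlapped H3K27me3 of late G1 (596 of 693, 83.2% to 88.5%) and 70.0% that of S phase (485 of 693, 66.4% to 73.4%). Most of the tall gained peaks were listed in late G1 (185 of 201, 92.0%), and 36.3% in S (73 of 201). Most of the tall lost places were thus listed in S or late G1 as well as in G2/M, and missing from the early G1 list. Kept G2/M peaks of all heights overlapped late G1 in 95.1% of cases and S in 58.9%. Those of 500 bp to 5 kb did in 99.9% and 86.9%. Kept early G1 peaks of all heights did in 96.5% and 65.2%. Being listed in other phases was thus not particular to unmatched peaks, and shares for kept peaks of like height were not counted.

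The tallest lost peaks carried the other marks far more often than kept peaks of like height. Of the 122 lost peaks above 2 times the shared median, 108 overlapped H3K4me3 in G2/M (88.5%, 81.5% to 93.6%), against 51.9% of 2504 kept G2/M peaks above that height. H3K27ac of G2/M lay on 24 of the 122 (19.7%, 13.03% to 27.8%), against 1.32% of the kept peaks, although acetylation and trimethylation cannot sit on the same lysine of 1 histone. Within 100 kb of the outermost listed position of a chromosome lay 18 of the 122 (14.8%, 8.98% to 22.3%), against 0.439% of the kept peaks. Above 4 times the shared median, all 28 lost peaks overlapped H3K4me3, 11 (39.3%) overlapped H3K27ac and 8 (28.6%) lay near a chromosome end. For the 968 kept G2/M peaks above that height the shares were 58.4%, 2.69% and 0.723%. Lost places of great height were thus often places where several antibodies gave peaks at once in G2/M, and the part of this in the losses was not tested.

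Lost and gained peaks of the middle class were also often listed in other phases. Of the 739 lost peaks of 500 bp to 5 kb, 324 (43.8%) were listed in both S and late G1, 374 (50.6%) in late G1 but not S, 25 in S alone and 16 (2.17%) in neither. Of the 1270 gained peaks of that width, 769 (60.6%) were listed in late G1 but not S, 223 (17.6%) in both, 8 in S alone and 270 (21.3%) in neither. Narrow peaks were more often in neither list, 39.9% of those lost and 55.5% of those gained. Kept G2/M peaks of 500 bp to 5 kb were listed in late G1 in 99.9% of cases and in S in 86.9%. For kept early G1 peaks of that width the shares were 99.5% and 82.1%. Over all widths, kept G2/M peaks were listed in late G1 in 95.1% of cases and in S in 58.9%. The S list is the shortest of the mark, with 18272 peaks on these chromosomes against 29642 in late G1, and how list length moves with these shares was not tested.

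At lost peaks H3K4me3, the mark of active and poised promoters, was listed less often in early G1 than in the other fractions. Of the 739 lost peaks of 500 bp to 5 kb, 29.5% overlapped an H3K4me3 peak in G2/M (218, 26.2% to 32.9%), but 6.09% did in early G1 (45, 4.48% to 8.06%). The share was 21.2% in S and 23.8% in late G1. Kept G2/M peaks of that width overlapped H3K4me3 at close to the same share in both fractions, 32.3% and 32.6%. For gained peaks of that width the shares were 19.1% in G2/M and 25.3% in early G1. Among kept peaks of the middle class with H3K4me3 in G2/M, 81.0% still overlapped it in early G1, against 20.6% of lost ones (45 of 218, 15.5% to 26.6%). Both active and repressive marks were thus missing from the early G1 lists at 173 of these lost places. Among the 693 tall lost peaks, 398 (57.4%) overlapped H3K4me3 in G2/M and 66 (9.52%) in early G1. Of 5772 kept G2/M peaks above the same height, 38.7% overlapped H3K4me3 in G2/M, and their share in early G1 was not counted. Peaks of H3K27ac, the mark of active promoters and enhancers, touched few peaks: 86 of 8920 lost peaks in G2/M (0.964%, 0.772% to 1.19%, set against 0.438% of kept G2/M peaks) and 39 in early G1 (0.437%, set against 0.992% of kept G2/M peaks).

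The 4 lost domains were all in 2 places. On chromosome 10 they were 42382776-42389825, with a relative height of 12.1 in G2/M, and 42389851-42397450, at 8.38. On chromosome 16 they were 46390826-46396400, at 6.42, and 46402801-46408925, at 7.12. Both places lie close to the centromere of their chromosome. All 4 overlapped H3K27me3 in S and late G1 and H3K4me3 in G2/M. From 25 kb before to 25 kb after these domains, H3K27me3 peaks on chromosome 10 numbered 39 in S, 38 in G2/M, 0 in early G1 and 27 in late G1. On chromosome 16 the numbers were 38, 22, 0 and 33 in the same order. H3K4me3 was low there in early G1 too, with 26 peaks in G2/M and 7 in early G1 on chromosome 10, and 20 and 0 on chromosome 16. The early G1 lists of both marks were thus empty or sparse at these places, and whether the early G1 libraries were filtered or processed differently there was not tested.

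The single gained domain was on chromosome 6 at 1099776-1106475, 6700 bp long with a relative height of 1.30, and it overlapped H3K27me3 of late G1 but not S. It was low for its width: the median of kept early G1 domains was 4.60. Among peaks without H3K27ac of their own fraction and in the upper 50% of their list by height and by score, the tallest gained peak of 500 bp to 5 kb was at 124782901-124784600 on chromosome 2, with a height of 101.0 in early G1, 38.3 in late G1 and 17.5 in S. It lay 1.7 kb from the nearest G2/M peak. Next came 126236901-126238800 on chromosome 4, with a height of 95.3 in early G1 and 37.2 in late G1, which lay 312 kb from any G2/M peak of the mark and overlapped H3K4me3 in both fractions. Gained peaks thus included places close to G2/M peaks and isolated places.

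By the same choice, which left out 38 narrow and 18 middle lost peaks with H3K27ac, the tallest lost peak under 500 bp was at 134263326-134263700 on chromosome 5, with a height of 130 in G2/M and 103.03 in S. It was in neither G1 list, lay 97.0 kb from the nearest early G1 peak, and overlapped H3K4me3 in G2/M but not in early G1. Of the middle class, the tallest on a chromosome other than 10 was at 196625426-196625950 on chromosome 3, with heights of 212.5 in S, 216 in G2/M and 171 in late G1. H3K4me3 at that place had a height of 236 in G2/M and 64.4 in early G1. At a further narrow lost peak, 25034826-25035200 on chromosome 20, no H3K4me3 was listed in either fraction.

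Domains over 5 kb were carried from G2/M to early G1 nearly whole. Early G1 peaks covered a median of 98.4% of the length of a G2/M domain (quartiles 94.0% and 100%). In 637 of 774 the cover was at least 90%, and in 13 it was under 50%. Early G1 domains were covered by G2/M peaks at a median of 95.9% (quartiles 88.6% and 99.4%). The outer edges in early G1 lay a median of 125 bp beyond the edges of the G2/M domain, with 61.2% of 1540 edges outside it and 34.4% inside. For early G1 domains, the outer G2/M edges lay a median of 0 bp beyond. Of 1682 such edges, 46.8% were outside and 48.4% inside, so the shift depended on which list set the domain. In early G1, 387 G2/M domains met 1 peak and 383 met 2 or more, while 540 of 842 early G1 domains met 2 or more G2/M peaks. Breaks inside a domain were thus common in both lists.

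The widest G2/M domains had near-identical extents after division. On chromosome 12, the domain of 142025 bp at 54316476-54458500 was 99.8% covered, with a height of 276 in G2/M and 325 in early G1. On chromosome 17, the domain of 108325 bp at 46618151-46726475 was 100% covered, with heights of 478 and 354. On chromosome 7, the domain of 106200 bp at 27133126-27239325 was covered to within 25 bp by 1 early G1 peak of 107375 bp, with heights of 334 and 412. These extents changed little, while the heights moved in different directions on the deposited scale.

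Next in width were 40121801-40185650 on chromosome 1 (63850 bp) and 176945126-177005275 on chromosome 2 (60150 bp). They were 97.5% and 99.3% covered in early G1, but by 8 and 4 peaks, of which the widest spanned 34550 and 22325 bp. Of these 5 domains, 4 lie on chromosomes 12, 17, 7 and 2, which hold the 4 HOX clusters in the RefSeq table. HOX genes encode homeodomain factors that pattern the body axis and are a classic Polycomb target. Gene identity was not assigned to any domain here. Their deposited heights were 398 in G2/M and 283 in early G1 on chromosome 1, and 249.6 and 311 on chromosome 2. On the relative scale all 5 were lower in early G1, at 6.70 against 9.93 on chromosome 12, 7.31 against 17.2 on chromosome 17, 8.49 against 12.0 on chromosome 7, 5.83 against 14.3 on chromosome 1 and 6.42 against 8.97 on chromosome 2.

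Most domains had a lower relative height in early G1, a direction that reverses with heights as deposited or with scores. Regions whose G2/M peak was over 5 kb (736) had a median relative height of 5.42 in G2/M and 4.798 in early G1, and the median of their log2 ratio, early G1 over G2/M, was -0.28 (quartiles -0.75 and 0.05). In 214 of them (29.1%) the ratio was above 0. For G2/M peaks under 500 bp the median was 0.00 (4170 regions), and for 500 bp to 5 kb it was -0.07 (4880 regions). Over all 9786 shared regions, 456 (4.66%) were more than 2-fold higher in early G1 and 865 (8.84%) more than 2-fold lower. Among the 736 regions with a G2/M domain, 133 (18.1%) were more than 2-fold lower and 1 was more than 2-fold higher. Classing by G2/M width favours regions high in G2/M: of the 787 regions with an early G1 domain, 96 (12.2%) were more than 2-fold lower and 13 (1.65%) more than 2-fold higher.

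The upper end of the height range was narrower in early G1. The 99th percentile of relative height was 11.5 in G2/M and 6.69 in early G1, and the maximum was 43.8 and 14.4. When regions were put in 10 equal groups by their mean relative height over both fractions, the median log2 ratio was -0.20 in the lowest group, 0.17 in the seventh and -0.27 in the highest. The direction for domains depended on the measure: the median log2 ratio was 0.53 with heights as deposited, where the median region was also higher in early G1, and 0.30 with the deposited score in place of height. With width taken from the early G1 peak the median was -0.08, and with width from the merged region -0.15.

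**Figure D3:**
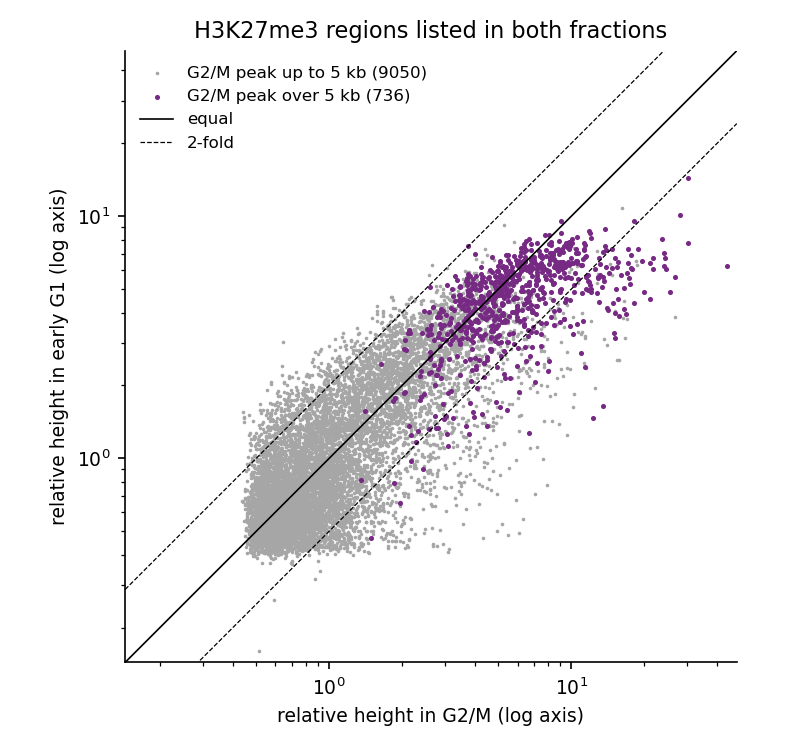
Relative height in early G1 (vertical axis) against G2/M (horizontal axis), both log scale, for 9786 regions listed in both fractions, with regions whose G2/M peak was over 5 kb in purple. The solid line is equality and the dashed lines are 2-fold. The tallest purple points lie below equality, up to 43.8 in G2/M but no higher than 14.4 in early G1. The median log2 ratio of all purple points, -0.28, flips with heights as deposited (0.53) or with scores (0.30). The 5 lowest ratios named in the text stay below 0 with heights as deposited.

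Among regions with a peak over 5 kb in both lists, the lowest ratio was at 66995076-67000775 on chromosome 15. Its heights were 435 in S, 1218 in G2/M, 302 in early G1 and 882 in late G1, and its log2 ratio of relative heights was -2.81. At 228741326-228786575 on chromosome 1 the heights were 765, 712, 235 and 1009 in the same order, with a log2 ratio of -2.40. At 121937651-121958000 on chromosome 7 they were 422, 316, 116 and 503, with a log2 ratio of -2.25. These heights are as deposited. In all 3 the early G1 height was the lowest of the 4 fractions, also relative to each list's median over regions listed in all 4. The order of the other fractions depended on the scale. At chromosome 1 from 228741326 late G1 was tallest as deposited, but the relative height was 25.4 in S and 14.9 in late G1. With the score in place of height the log2 ratios of the 3 regions were -0.57, -0.53 and -0.73.

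Further low ratios were at 77137301-77149825 on chromosome 5, with heights of 737 in S, 743 in G2/M, 273 in early G1 and 930 in late G1, and at 79376701-79386600 on chromosome 15, with 316, 587, 221 and 421. Their log2 ratios were -2.25 and -2.21 by height but 0.43 and 0.09 by score, so their direction depended on the measure. All 5 places overlapped H3K4me3 in G2/M, and 4 did in early G1. At chromosome 15 from 66995076 the H3K4me3 height was 1323 in G2/M and 238 in early G1, at chromosome 1 from 228741326 it was 339 and 110, and at chromosome 5 from 77137301 it was 220 and 29.4. At chromosome 7 from 121937651 it went the other way, 83.6 and 241. These H3K4me3 heights are as deposited and were not set relative to a median of their lists.

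The highest ratios were smaller. At 72728676-72742975 on chromosome 5 the heights were 108 in S, 104 in G2/M, 363 in early G1 and 168 in late G1, with a log2 ratio of 1.01. At 123348651-123356750 on chromosome 12 they were 72.5, 72.4, 247 and 96.2, with a ratio of 0.97. At 155293426-155312175 on chromosome 7 they were 117, 111, 339 and 173, with a ratio of 0.80. Early G1 was the tallest fraction in each. The other 2, at chromosome 2 from 176929551 and chromosome 10 from 50600851, had ratios of 0.77 and 0.76. All 5 were 1 unbroken peak in early G1 and 2 to 6 peaks in G2/M, so here the taller fraction also had the longer peak, and all 5 also had a ratio above 0 by score (0.96 to 1.68).

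Shared regions also differed by their H3K4me3. The median log2 ratio of H3K27me3 was 0.15 in 2691 regions with H3K4me3 in both fractions and -0.13 in 5970 regions with it in neither. It was -0.39 in 555 regions with H3K4me3 listed in G2/M alone, of which 139 (25.05%) were more than 2-fold lower in early G1, and 0.36 in 570 regions with it in early G1 alone, of which 14 (2.46%) were. Over the 2691 regions with both marks in both fractions, the log2 ratios of H3K27me3 and H3K4me3 had a Spearman rho of 0.31 and a Pearson r of 0.38. This is a description across regions, which share their libraries and are not replicates. By G2/M width class, narrow to wide, the median with H3K4me3 in G2/M alone was 0.08, -0.37 and -0.67. With H3K4me3 in neither fraction it was -0.07, -0.24 and -0.22. In the 247 regions with a G2/M domain and both marks in both fractions, rho was 0.17 and the median ratio -0.24. With H3K4me3 in both fractions the median was 0.40 in narrow and 0.14 in middle regions. In every class the median with H3K4me3 in G2/M alone was thus below that with it in both. Against regions with it in neither, the median was lower from 500 bp upward and not in narrow regions. Of the 89 narrow regions with H3K4me3 in G2/M alone, 12.4% were more than 2-fold lower in early G1. The share was 2.47% with H3K4me3 in both and 1.82% with it in neither. The part of the early G1 libraries in this was not tested.

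Chromosome 19 stood apart from the other 20. It held 1938 G2/M peaks and 1114 early G1 peaks, a ratio of 0.575, against 0.830 to 1.13 on the others. Of its G2/M peaks 37.0% were kept (717 of 1938, 34.8% to 39.2%), against 50.8% to 74.3% elsewhere. Of its early G1 peaks 75.04% were kept (836 of 1114, 72.4% to 77.6%), against 45.5% to 63.2%. Chromosome 19 is the most gene-dense human chromosome and is known for clusters of KRAB zinc finger genes. It thus had the lowest share kept in 1 direction and the highest in the other.

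The difference held in each class below 5 kb. Of chromosome 19 G2/M peaks under 500 bp 22.3% were kept, against 34.2% to 66.0% on the others, and of those of 500 bp to 5 kb 73.4%, against 83.03% to 94.8%. Domains numbered 42 in G2/M and 29 in early G1. Shared regions there had a median log2 ratio of -0.43, against -0.23 to 0.26 on the other chromosomes. Over windows of 10 Mb with more than 100 peaks, the kept share was lowest from 50 to 60 Mb (25.9% of 429 peaks) and highest from 30 to 40 Mb (65.0% of 123). The 1221 lost peaks overlapped late G1 H3K27me3 in 70.1% of cases and S in 7.86%, against 58.4% and 16.1% of lost peaks elsewhere. Of these 1221 peaks 6.55% overlapped H3K4me3 in G2/M, against 16.1% of lost peaks elsewhere. The H3K4me3 lists of the chromosome held 1879 peaks in G2/M and 1577 in early G1. Without chromosome 19, 7699 peaks were lost and 9381 gained, and G2/M peaks under 500 bp were kept in 54.0% of cases.

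**Figure D4:**
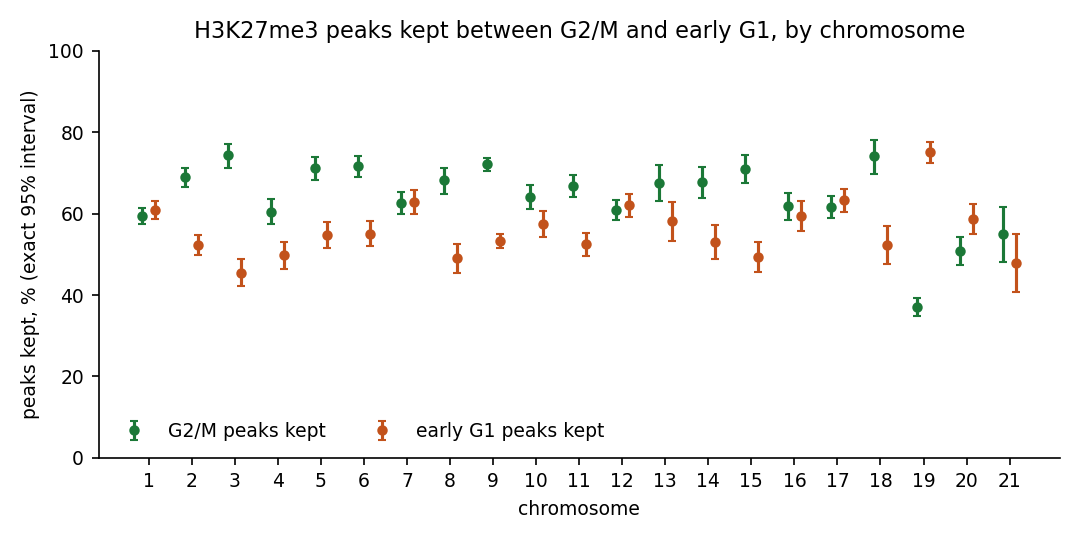
Share of H3K27me3 peaks kept (vertical axis, percent, exact 95% intervals) by chromosome (horizontal axis) for G2/M peaks, green, and early G1 peaks, orange. Chromosome 19 has the lowest green point, 37.0%, and the highest orange point, 75.04%.

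The 2 viewpoint loci each lie in a domain that was present in both fractions. Around the 4C site with the most reads beside GATA6, at 19758344 on chromosome 18, G2/M had a domain of 18025 bp at 19742476-19760500 with a height of 153 and a relative height of 5.51. Early G1 had the same stretch as 2 domains, 19741651-19751800 and 19751926-19760650, with heights of 275 and 245 and relative heights of 5.67 and 5.06. Within 25 kb of the site H3K27me3 covered 19 kb in G2/M and 19.2 kb in early G1. Beside SOX17, another endoderm transcription factor gene, the domain around the site at 55373264 on chromosome 8 was 20650 bp long in G2/M and 21750 bp in early G1. Its heights were 135 and 274, its relative heights 4.85 and 5.65, and the covered lengths within 25 kb were 21.4 and 22.3 kb. Both loci thus kept their extent, and their relative heights in the 2 fractions were far closer than 2-fold.

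**Figure D5:**
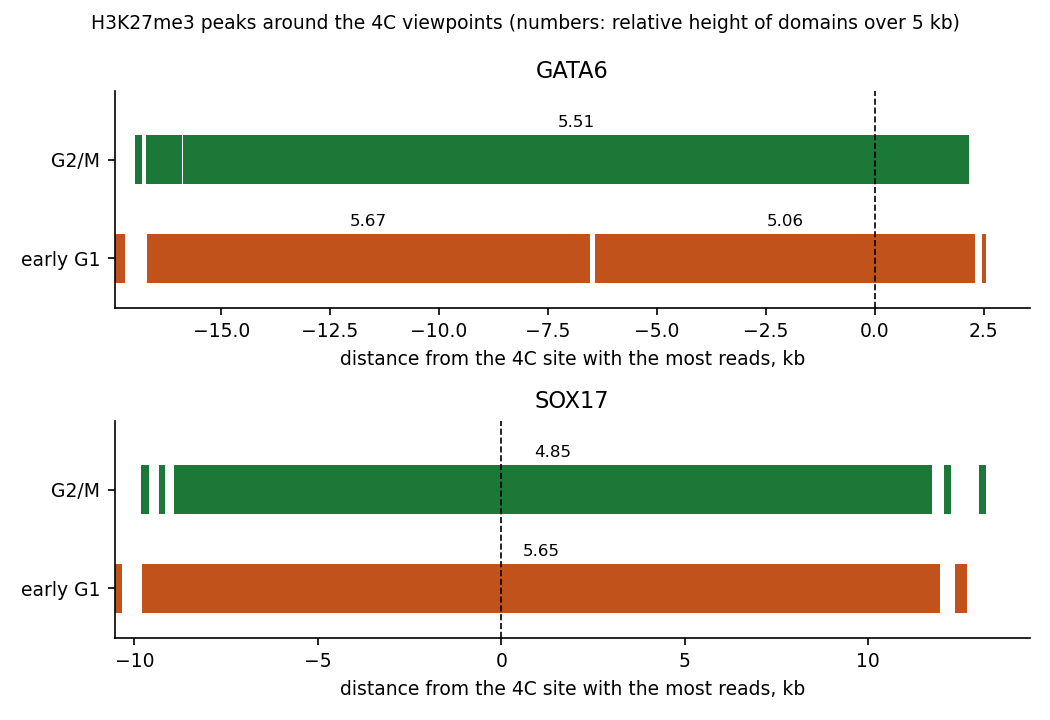
H3K27me3 peaks, drawn as bars, in G2/M and early G1 around the GATA6 and SOX17 viewpoints (horizontal axis, kb from the 4C site with the most reads, dashed line). Numbers above domains over 5 kb are relative heights; the extent is close to equal in both fractions, and the GATA6 domain of 18025 bp in G2/M is listed as 2 in early G1.

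Set beside the other steps of the cycle, which share these libraries, division did not have the lowest share of peaks kept in either direction. The share of earlier peaks kept was 63.5% from G2/M to early G1, 75.5% from early to late G1, 30.2% from late G1 to S and 84.7% from S to G2/M. The share of later peaks already present was 56.4%, 51.5%, 93.0% and 42.9% in the same order. The lists differed in length, with 24445 peaks in G2/M, 22140 in early G1, 29642 in late G1 and 18272 in S. The part of list length in these shares was not tested. Shared regions more than 2-fold apart in relative height made up 13.5%, 7.51%, 4.77% and 3.51%. For H3K4me3 from G2/M to early G1, 77.7% of earlier peaks were kept, 81.7% of later peaks were already present and 19.4% of shared regions were more than 2-fold apart. Height differences were thus more frequent across division than at the other H3K27me3 steps, and more frequent still for H3K4me3. Neighbouring steps share a library, and whether they differ was not tested.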

How the data were processed

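H3K27me3 ChIP-seq lists of Fucci human embryonic stem cells were compared, 1 library per fraction, with groups taken from the labels. Per the submitters' processing notes, Bowtie 0.12.7 was among the tools and hg19 and mm9 among the builds, with no role stated. Not given in the sources used here: which caller made the peaks, with what settings and inputs. The deposited lists hold each peak's coordinates, its length in bp, a signal column read from its values as the peak's height, and a score column that is negative and stronger when more negative. The scales of signal and score are not given. Both are the authors' values. Every peak on chromosome codes 22 to 24, and 3 early G1 peaks on other chromosomes, had a height of 0, treated as missing, so only chromosomes 1 to 21 were compared. The deposited 4C table of whole-number counts per restriction site gave only the site with the most reads at each viewpoint.

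Python 3.11.15 with numpy 2.4.6, pandas 2.3.3, scipy 1.17.1 and matplotlib 3.10.9 was used. Peaks were matched at an overlap of at least 1 bp and merged into regions. Relative height is the greatest peak height in a region over the list's median over shared regions. Overlap code was checked on simulated intervals. Regions named were, by rule and from the upper 50% of each list by height and by score, the 5 widest peaks of each fraction, up to 3 of the tallest lost and gained peaks per class without H3K27ac of their fraction, the least covered domains, and the 5 highest and 5 lowest ratios among regions with a peak over 5 kb in both lists; the text gives a part of them. Members, lists and rules were chosen with earlier results of these data known. Planned gene lists were not run, because no hg19 annotation was used here. No p-value was computed. No per-sample column was left unused (0).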

Additional observations from a re-analysis of the deposited data

How the results depend on the processing

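With 1 library in each fraction, leaving out a replicate was not possible, and no paired analysis was possible because each group had 1 library. Kept shares stood in the order narrow, middle, wide under each of the 16 combinations of 8 other settings and 2 directions. In the order G2/M under 500 bp, G2/M 500 bp to 5 kb, early G1 under 500 bp and early G1 500 bp to 5 kb, they were 45.3%, 80.4%, 26.8% and 63.2% when 50% of the peak had to be covered (98.3% for domains in both directions), 49.8%, 82.98%, 33.7% and 74.4% in the stronger 50% of each list by score, and 30.6%, 83.7%, 22.1% and 77.2% with peaks joined within 1 kb. Lost and gained peaks then numbered 3565 and 3624 in the stronger lists and 3260 and 2932 in the joined ones, where the median cover of domains was 94.6% for G2/M and 90.5% for early G1. With equal numbers by score the shares that moved were 52.9% for narrow G2/M peaks and 33.4% and 83.4% for narrow and middle early G1 peaks. Over all chromosomes, narrow early G1 peaks were kept at 36.2%. Without peaks on H3K27ac the G2/M shares were 50.5% and 88.0%. Leaving out single chromosomes was chosen after the data were seen: without chromosome 19 the shares were 54.0%, 90.5% and, for narrow early G1 peaks, 33.7%, and without chromosome 9 narrow G2/M peaks were kept at 49.5%.

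Domains numbered 1502 and 1801 at a limit of 3 kb and 293 and 303 at 10 kb. For the median log2 ratio of relative height, in the order narrow, middle and wide, heights as deposited gave 0.80, 0.74 and 0.53, and scores gave -0.15, 0.14 and 0.30, so that middle and wide regions reversed under both. The median over shared regions over 5 kb gave 0.16, 0.092 and -0.12, width from the early G1 peak -0.36, 0.14 and -0.080, and width from the merged region -0.26, 0.066 and -0.15; middle regions reversed in each. Length-weighted heights gave -0.34 for domains. Differences in percentile rank were 11.2, -1.03 and -0.0063 percentage points. Added after the data were seen, regions without H3K4me3 gave -0.074 and -0.24 for narrow and middle regions, leaving out chromosome 19 gave -0.033 for middle regions and leaving out chromosome 9 gave 0.027 for narrow ones. More than 1.5-fold higher and lower in early G1 were 1482 and 1951 regions, and more than 4-fold 1 and 117. At chromosome 5 from 77137301 and chromosome 15 from 79376701, scores gave 0.43 and 0.087. The cause of these shifts was not tested. The read depth behind the lists is unknown here.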

Other observations

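H3K27me3 peaks were dense in a few stretches of chromosome 9. From 65 to 70 Mb the G2/M list held 1212 peaks and the early G1 list 1415, against a median of 25 in each list over 556 windows of 5 Mb with a peak. The late G1 and S lists held 1318 and 1014 peaks there, while H3K4me3 had 43 in G2/M and 38 in early G1. From 40 to 45 Mb there were 411 and 673 H3K27me3 peaks, of which 70.1% of the G2/M peaks and 37.1% of the early G1 peaks were kept. From 70 to 75 Mb there were 403 and 408. Chromosome 9 as a whole held 3090 G2/M and 3500 early G1 peaks, so it carries much weight in counts over all peaks.

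At 25034826-25035200 on chromosome 20, a lost narrow peak had a height of 100.1 in G2/M and a score of -0.99, and an early G1 peak ended directly beside it. Its height was above 95.1% of the G2/M list and its score stronger than 65.7% of it.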
